A study of Mus musculus with 4 samples.

Results

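Myosin heavy chains are the motor subunits of the thick filament, and 9 genes of the striated muscle family were examined in sarcomas of W/+ mice: Myh1, Myh2, Myh3, Myh4, Myh6, Myh7, Myh7b, Myh8 and Myh13. They were chosen by gene symbol, as the adult fast, slow, cardiac, embryonic, neonatal and extraocular forms, and make up 9 of the 56691 genes in the deposited table. RNA-seq had been performed on 4 sarcomas from mice heterozygous for a p53 mutation, given in the labels as p53R282W/+, so the control tumours carried the same allele. Sarcomas ATO-1 and ATO-2 came from mice treated with ATO (arsenic trioxide), and sarcomas PBS-1 and PBS-2 came from mice whose treatment the labels name as PBS. The ages of the mice and the histological type and site of each sarcoma are not given in the labels, and nothing in them ties an ATO sarcoma to a PBS sarcoma. The labels also attach a growth protocol for cultured cells (dexamethasone, isobutylmethylxanthine and insulin) to all 4 tumour samples.

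A muscle fibre builds its thick filaments from dimers of one or a few myosin heavy chains, and the chain it uses sets how fast it contracts. In adult limb muscle of the mouse, Myh4 (type IIb), Myh1 (type IIx) and Myh2 (type IIa) are the fast forms and Myh7 is the slow form, which the heart also expresses. Myh3 (embryonic) and Myh8 (neonatal) are used in developing muscle, are replaced by adult forms after birth and return in regenerating fibres. Myh6 is the main chain of the adult mouse heart, Myh13 belongs to extraocular muscle, and Myh7b gives little protein in most muscles. The question put to the data was whether the muscle transcripts in these tumours were of the adult or the developmental kind.

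In GRCm38, 6 of the 9 genes lie in one cluster on the plus strand of chromosome 11, in the order Myh3 (chr11:67078300-67102291), Myh2 (chr11:67171027-67197517), Myh1 (chr11:67200052-67224575), Myh4 (chr11:67238029-67260446), Myh8 (chr11:67277124-67308634) and Myh13 (chr11:67321658-67371586). Myh6 (chr14:54941921-54966927) and Myh7 (chr14:54970684-54994626) lie side by side on the minus strand of chromosome 14, and Myh7b (chr2:155611212-155634307) lies on the plus strand of chromosome 2. These positions are from GENCODE M21. The genes are close copies of each other, so the first point to settle was whether their reads can be told apart. Between Myh4 and the other 5 chains with the most reads, the most divergent stretch of coding sequence is shown here because it separates the adult, neonatal, embryonic and slow forms. It is read 5′ to 3′ from the GENCODE M21 transcripts, in GRCm38, and capitals mark bases that differ from Myh4.
Myh4, coding bases 148 to 207: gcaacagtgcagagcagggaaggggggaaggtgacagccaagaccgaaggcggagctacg
Myh1, coding bases 148 to 207: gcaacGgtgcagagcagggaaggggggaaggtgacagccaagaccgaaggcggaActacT
Myh2, coding bases 148 to 207: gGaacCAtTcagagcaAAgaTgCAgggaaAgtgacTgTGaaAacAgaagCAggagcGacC
Myh8, coding bases 154 to 213: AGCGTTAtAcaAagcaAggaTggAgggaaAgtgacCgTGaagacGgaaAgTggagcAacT
Myh3, coding bases 148 to 207: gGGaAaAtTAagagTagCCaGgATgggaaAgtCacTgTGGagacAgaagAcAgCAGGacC
Myh7, coding bases 145 to 204: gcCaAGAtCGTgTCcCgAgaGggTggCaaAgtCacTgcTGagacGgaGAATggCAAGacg
Over these 60 bases Myh1 differs from Myh4 at 3 positions, Myh2 at 19, Myh8 at 21, Myh3 at 26 and Myh7 at 28. Over the whole coding sequence Myh4 is 90.1% identical to Myh1, 87.7% to Myh8, 80.3% to Myh3 and 77.4% to Myh7, while Myh6 and Myh7 are 91.4% identical to each other. A stretch of 150 bases, the length of 1 read, is nevertheless nearly always unique. The share of 150-base windows of the transcript that occur exactly in another gene was 0.511% for Myh4, 2.49% for Myh1, 2.06% for Myh2, 1.60% for Myh8, 0.306% for Myh3 and 1.39% for Myh13. It was 5.51% for Myh7 and 5.53% for Myh6, which share such windows with each other. Reads were trimmed before alignment, and shorter windows were less often unique. At 100 bases the share was 3.85% for Myh4, 9.73% for Myh1, 9.17% for Myh2, 6.61% for Myh8 and 1.15% for Myh3. For Myh13 it was 3.45%, and for Myh7 and Myh6 11.4% each. How reads with several alignments were counted is not given in the sources used here, so low counts of one chain beside very high counts of a near copy are uncertain.

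The promoters of the cluster hold a second set of shared letters. RefSeq promoter windows of GRCm38.p6, from 250 bases before to 50 bases after the start of transcription, were matched for all 9 genes. The longest run of bases common to the promoters of Myh1, Myh2, Myh4 and Myh8, a group picked after reading the windows, is 14 bases long. The part of each promoter that ends in this run is shown on the plus strand, because these are the chains of juvenile and adult fast fibres and the run was found in no other window. Capitals mark the shared run at the 3′ end and, where present, a match to the MEF2 motif, the site of a family of muscle transcription factors.
Myh2, chr11:67170847-67170915: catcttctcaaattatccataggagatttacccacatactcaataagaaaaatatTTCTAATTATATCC
Myh1, chr11:67199887-67199955: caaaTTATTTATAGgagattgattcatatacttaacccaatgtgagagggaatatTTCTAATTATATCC
Myh4, chr11:67237599-67237667: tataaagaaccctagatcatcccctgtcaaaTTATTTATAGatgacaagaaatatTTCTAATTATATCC
Myh8, chr11:67277015-67277083: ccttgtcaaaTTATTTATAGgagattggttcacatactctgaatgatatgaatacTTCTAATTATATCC
On either strand, 4 of 32851 promoter windows held the 14-base run, and they were the windows of these 4 genes. The run began 158 bases before the start of Myh4, 160 bases before that of Myh1, 125 before that of Myh2 and 54 before that of Myh8. Extended from TTCTAATTATATCC to the 20 bases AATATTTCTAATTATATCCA, it was found in 3 windows, those of Myh1, Myh2 and Myh4. The MEF2 motif was found in 3 of the 9 members, Myh4, Myh1 and Myh8, and in 3.19% of all windows on either strand. Its 10 letters, TTATTTATAG, were the same in all 3 genes and overlap a TATAAA match on the other strand. Myh3, whose RNA is the embryonic form, held neither the run nor the MEF2 motif in its window.

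The 4 sarcomas differed in the amount of myosin heavy chain RNA by several orders of magnitude. The 9 genes held 404029 reads in ATO-1 (2.23% of all counts), 15678 in ATO-2 (0.103%), 68 in PBS-1 (0.000389%) and 3607 in PBS-2 (0.0201%). Total counts were alike, between 15259695 and 18134000 per sarcoma. The summed level, in FPKM (counts divided by exon length and by the library total), was 3658 in ATO-1, 158 in ATO-2, 0.61 in PBS-1 and 31.1 in PBS-2. Both ATO sarcomas lay above both PBS sarcomas, with ATO-1 far above the rest and PBS-1 close to nothing. In bulk tissue, fewer muscle cells and less muscle RNA per cell cannot be told apart.

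**Figure D1:**
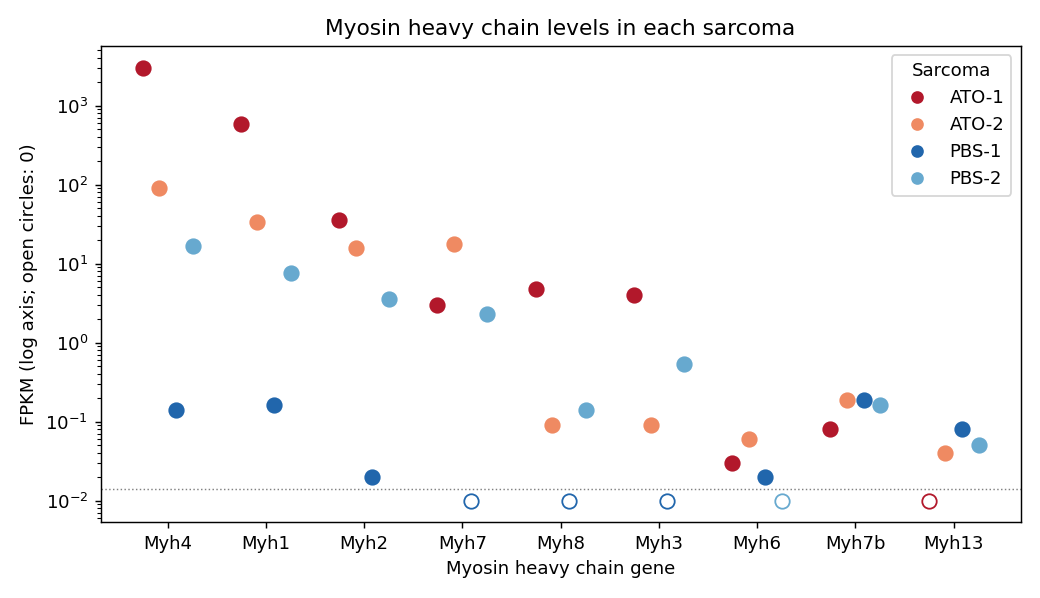
FPKM of each of the 9 myosin heavy chain genes (log axis) in each of the 4 sarcomas, 1 point per sarcoma, with open circles below the dotted line for values of 0. Myh4 spans 0.14 to 3029 FPKM, and the genes to the right of Myh3 stay below 0.2 FPKM in all 4 sarcomas.

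The adult fast chains made up nearly all of this RNA. Myh4, the type IIb chain of the fastest fibres, had 330469 counts in ATO-1, 8310 in ATO-2, 15 in PBS-1 and 1812 in PBS-2, or 3029, 90.5, 0.14 and 16.8 FPKM. In ATO-1 it was the gene with rank 8 by FPKM of the whole table, and in PBS-1 it ranked 19368. Both ATO values lay above both PBS values, but ATO-1 exceeded ATO-2 by 27.3-fold after TMM normalization, more than the 7.29-fold between ATO-2 and PBS-2. Myh1, the type IIx chain, had 67036, 3307, 18 and 870 counts in ATO-1, ATO-2, PBS-1 and PBS-2, or 582, 34.1, 0.16 and 7.62 FPKM. Myh2, the type IIa chain of fast oxidative fibres, had 4580, 1712, 2 and 452 counts, or 35.4, 15.7, 0.02 and 3.52 FPKM. Here ATO-1 was only 1.83-fold above ATO-2, so the step between the ATO sarcomas shrank from Myh4 through Myh1 to Myh2, while ATO-2 exceeded PBS-2 by 6.04-fold for Myh1 and 6.02-fold for Myh2. By FPKM, Myh4 stood above Myh1 and Myh1 above Myh2 in ATO-1, ATO-2 and PBS-2, but between neighbours in this order the values of a treatment group overlapped.

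The slow chain was ordered differently. Myh7 had 464 counts in ATO-1, 2296 in ATO-2, 0 in PBS-1 and 360 in PBS-2, or 2.97, 17.5, 0 and 2.32 FPKM. The highest value was that of ATO-2, 7.22-fold above ATO-1 after TMM normalization, and ATO-1 was within 1.41-fold of PBS-2. A count of 0 in PBS-1 allows up to 3 counts, which is 0.172 CPM (counts scaled to the library total) there. Per base of exon, Myh7 stood at 0.00098 of Myh4 in ATO-1, 0.193 in ATO-2 and 0.139 in PBS-2.

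The developmental chains were present at low levels. Myh8, the neonatal chain, had 1032 counts in ATO-1, 16 in ATO-2, 0 in PBS-1 and 30 in PBS-2, and Myh3, the embryonic chain, had 434, 8, 0 and 59. In FPKM these were 4.83, 0.09, 0 and 0.14 for Myh8 and 3.95, 0.09, 0 and 0.54 for Myh3. For both genes the ATO and PBS groups overlapped, since ATO-2 lay below PBS-2, at 0.848 of its TMM-normalized level for Myh8 and 0.216 for Myh3. Reads of Myh8 outnumbered those of Myh3 in both ATO sarcomas, whereas Myh3 outnumbered Myh8 in PBS-2. The exon length behind the FPKM of Myh8 is 11772 bases where its longest GENCODE M21 coding transcript has 6149, so its deposited FPKM is low beside that of Myh3, with 6057 bases.

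The remaining 3 chains were near the limit of detection. Myh6, the cardiac chain, had 4, 6, 2 and 0 counts in ATO-1, ATO-2, PBS-1 and PBS-2. Myh13 had 0, 4, 9 and 5 counts and Myh7b had 10, 19, 22 and 19 counts. Myh7b therefore did not follow the fast chains, and it was the most abundant of the 9 genes in PBS-1.

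The make-up of the myosin heavy chain reads bears directly on the question of adult against developmental muscle. Of the 404029 reads in ATO-1, Myh4 took 81.8%, Myh1 16.6%, Myh2 1.13%, Myh7 0.115% and the developmental chains Myh3 and Myh8 together 0.363% (exact binomial 95% interval 0.345 to 0.382%). In ATO-2, Myh4 took 53.0%, Myh1 21.1%, Myh2 10.9%, Myh7 14.6% and the developmental chains 0.153% (0.0981 to 0.228%). In PBS-2, Myh4 took 50.2%, Myh1 24.1%, Myh2 12.5%, Myh7 9.98% and the developmental chains 2.47% (1.99 to 3.03%). Adult chains thus held most of the reads in these 3 sarcomas. In PBS-1 the 68 reads were 22 of Myh7b, 18 of Myh1, 15 of Myh4, 9 of Myh13, 2 of Myh2 and 2 of Myh6. Myh3 and Myh8 had 0, for a developmental share of 0% (exact binomial 95% interval 0 to 5.28%). Of the 35 reads left without Myh7b, Myh13 and Myh6, the interval was 0 to 10.0%. The intervals cover counting error only.

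**Figure D2:**
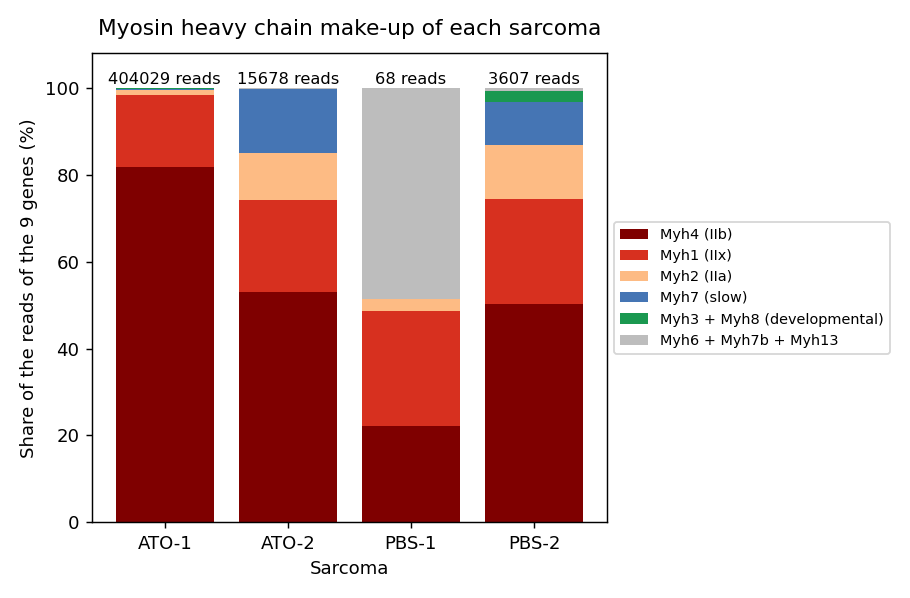
Share (%) of the reads of the 9 genes taken by each chain or group of chains in each sarcoma, as stacked bars that add up to 100, with the number of reads above each bar. ATO-2 and PBS-2 have a similar make-up, ATO-1 is 81.8% Myh4, and the bar of PBS-1 rests on 68 reads.

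In make-up, ATO-2 lay nearer to PBS-2 than to ATO-1, but PBS-1 held too few reads to tell whether make-up sorts by treatment. Over the 6 chains of limb muscle (Myh1, Myh2, Myh3, Myh4, Myh7 and Myh8), distance was the share of reads placed on a different chain. It was 7.15% between ATO-2 and PBS-2, against 28.9% between ATO-1 and ATO-2 and 31.2% between ATO-1 and PBS-2. Distances of PBS-1, with 35 reads of these chains, were 27.1% to PBS-2, 30.3% to ATO-2 and 39.4% to ATO-1. The developmental share was 0.258% ± 0.148 (SD, n = 2) in ATO and 1.23% ± 1.74 (n = 2) in PBS, and a two-sided exact permutation test gave p = 1. The difference of -0.976 percentage points turned to 0.258 without PBS-2, since PBS-1 had no developmental read. The slow share was 7.38% ± 10.3 in ATO and 4.99% ± 7.06 in PBS (n = 2 each, exact permutation p = 0.667), and the difference of 2.39 points turned to -4.88 without ATO-2 and -2.60 without PBS-1. The adult fast share was 92.3% ± 10.3 in ATO and 69.2% ± 25.0 in PBS (n = 2 each, exact permutation p = 0.667), but the PBS mean rests on the 68 reads of PBS-1, of which 51.5% were of adult fast chains. Of the reads of the 6 chains of limb muscle alone, 35 in PBS-1, the adult fast share was 92.3% ± 10.1 in ATO and 93.7% ± 8.86 in PBS (n = 2 each, exact permutation p = 0.667), so the difference of 23.1 points turned to -1.39. With 2 sarcomas per group this test cannot give a p below 0.333.

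Across all genes, ATO was compared with PBS by edgeR's quasi-likelihood test on TMM-normalized counts. Of 17188 genes tested, 0 (0%) passed a Benjamini-Hochberg adjusted p of 0.05 in edgeR, the smallest adjusted p being 0.570, while 1463 (8.51%) had an unadjusted p under 0.05. DESeq2 called 716 genes and edgeR without a filter on low counts 541. Of the 9 members, 7 had enough counts to be tested (Myh6 and Myh13 did not), and 0 passed in edgeR. Myh4 had a log2 fold change of 7.67 (SE 3.11, adjusted p = 0.592 in edgeR) and Myh1 of 6.46 (SE 2.44, adjusted p = 0.584 in edgeR). The unadjusted p was 0.0485 for Myh1, the only member under 0.05, where 5.44% of all genes tested were under it with a higher level in ATO. DESeq2 gave Myh4 an adjusted p of 0.000823 and Myh1 one of 0.00193, calling 2 members where 3.38% of all genes were called higher in ATO. Without a filter, edgeR gave them 0.0361 and 0.0281, again 2 members, where 1.47% of all genes were called higher. These calls were not made by edgeR with its filter, so the group difference of both genes depends on the tool and on the filter.

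The other members tested were Myh8, with a log2 fold change of 5.24 (SE 2.49, adjusted p = 0.624 in edgeR), Myh2, with 4.09 (SE 2.04, adjusted p = 0.635 in edgeR), and Myh7, with 3.53 (SE 2.36, adjusted p = 0.709 in edgeR). Myh3 had 3.04 (SE 2.42, adjusted p = 0.754 in edgeR) and Myh7b -0.04 (SE 0.82, adjusted p = 0.994 in edgeR). The median of the 7 members was 4.09, where that of all genes tested was -0.02. Both ATO sarcomas lay above both PBS sarcomas for Myh4, Myh1, Myh2, Myh7 and Myh6, that is for 5 of the 9 members and 4 of the 7 tested, against 19.7% of all genes tested. The reverse held for 0 members and 20.2% of all genes tested. By FPKM, which is not TMM-normalized, the same count of 5 members had both ATO sarcomas on top, against 12.8% of all genes tested. In mean TMM-normalized CPM, Myh4 stood at 9410.0 ± 12366 (SD, n = 2) in ATO and 46.0 ± 64.0 in PBS (n = 2), so the SD exceeded the mean in each group. The same held for Myh1, at 1974 ± 2417 and 22.4 ± 30.3, and Myh7, at 105 ± 112 and 9.07 ± 12.8 (n = 2 each).

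Single sarcomas decided these values. Without ATO-1, the log2 fold change of Myh4 was 3.85, that of Myh1 3.56, that of Myh8 0.75 and that of Myh3 -1.21. Without ATO-2, that of Myh7 was 1.51. Without PBS-2, PBS-1 alone stood for the controls, and the log2 fold changes of the 6 chains of limb muscle lay between 10.7 and 13.8. For Myh3, Myh7 and Myh8, with 0 counts in PBS-1, these values depend on the count edgeR adds. PBS-1 had 15 counts of Myh4, 18 of Myh1 and 2 of Myh2. In these fits the lone sarcoma of a group is assumed to vary like the others.

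**Figure D3:**
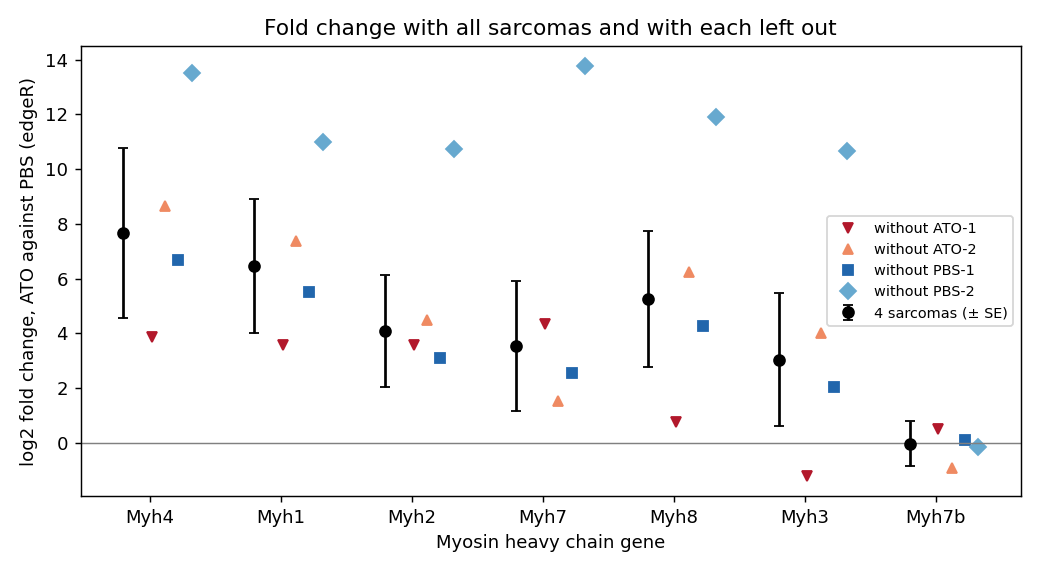
Log2 fold change of ATO against PBS in edgeR for the 7 members tested, with all 4 sarcomas (black, with SE) and with each sarcoma left out in turn (coloured). Leaving out ATO-1 brings Myh4 from 7.67 to 3.85 and takes Myh3 below 0, and leaving out PBS-2 lifts 6 of the 7 genes above 10.

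The partner proteins of fast fibres followed the fast chains. This list held 10 genes (Mylpf, Myl1, Tnni2, Tnnt3, Tnnc2, Atp2a1, Actn3, Mybpc2, Pvalb and Casq1). Both ATO sarcomas lay above both PBS sarcomas for 10 of them, against 19.7% of all genes tested. In edgeR 9 had an unadjusted p under 0.05, where 5.44% of all genes tested were under it with a higher level in ATO. None of the 10 had an adjusted p under 0.05 in edgeR, and the median log2 fold change was 7.04. Atp2a1, the calcium pump of fast fibres, had 3220 FPKM in ATO-1, 172 in ATO-2, 0.21 in PBS-1 and 31.9 in PBS-2. Tnnt3, the fast troponin T, had 2979, 182, 3.73 and 21.7 FPKM, and Mylpf, the fast regulatory light chain, had 1311, 91.9, 1.35 and 11.8. The order of the sarcomas was that of Myh4 in each case.

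Over the 4 sarcomas, the genes with profiles nearest to the summed adult fast chains were Atp2a1, Acta1, Ckm, Mybpc2 and Myl1. Distances between centred log2(CPM + 1) profiles ran from 0.324 for Atp2a1 to 2.24 for Myl1. Acta1 is the alpha actin of skeletal muscle and Ckm the muscle creatine kinase, with 3898 and 1224 FPKM in ATO-1 and 0.78 and 0.10 in PBS-1. Summed over the 9 genes, heavy chain FPKM stood at 0.938 of Acta1 in ATO-1, 0.370 in ATO-2, 0.782 in PBS-1 and 0.669 in PBS-2. This range is narrow beside that of the levels. The PBS-1 value rests on 68 reads against 21 of Acta1, and 47.5% of its heavy chain FPKM was of Myh6, Myh7b and Myh13. The profile of Myh3 was nearest to those of Eda2r, Car2, Filip1, Asb4 and Ccdc194 (distances 0.276 to 0.547), of which Eda2r is a receptor of the tumour necrosis factor receptor family and Car2 a carbonic anhydrase. These likenesses rest on 4 libraries, from sarcomas whose type and site are not given, and no test was made of them.

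The slow partners gave the second view of the fibre types. Of 9 such genes, 8 had both ATO sarcomas above both PBS sarcomas (Tnni1 did not), against 19.7% of all genes tested. In edgeR 4 had an unadjusted p under 0.05, against 5.44% of all genes tested with a higher level in ATO. An adjusted p under 0.05 was reached by 0 in edgeR. The median log2 fold change of the slow partners was 3.72, below that of the fast partners. Slow to fast ratios were formed between 8 pairs of genes that do the same work, among them Myh7 and Myh4. In the 3 sarcomas with muscle reads to compare, ATO-1 had the lowest ratio in 8 of 8 pairs, and in 7 of 7 without the myosin heavy chains. Myl2 to Mylpf, the regulatory light chains, stood at 0.00147 in ATO-1, 0.192 in ATO-2 and 0.104 in PBS-2. Tnnt1 to Tnnt3, the troponins T, stood at 0.00261, 0.110 and 0.140, and Tnnc1 to Tnnc2, the troponins C, at 0.0171, 0.423 and 0.601. ATO-2 and PBS-2 had similar ratios in these pairs although they differ in treatment, while 2 other pairs separated them more. Tnni1 to Tnni2, the troponins I, stood at 0.0800 in ATO-2 and 0.560 in PBS-2. Casq2 to Casq1, the calsequestrins, stood at 0.0497 and 0.371, where ATO-2 was close to the 0.0358 of ATO-1. Casq2 had 203, 44, 25 and 39 counts in ATO-1, ATO-2, PBS-1 and PBS-2. Since it was also read in PBS-1, where muscle RNA was close to nothing, what this ratio says of fibre types is uncertain.

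**Figure D4:**
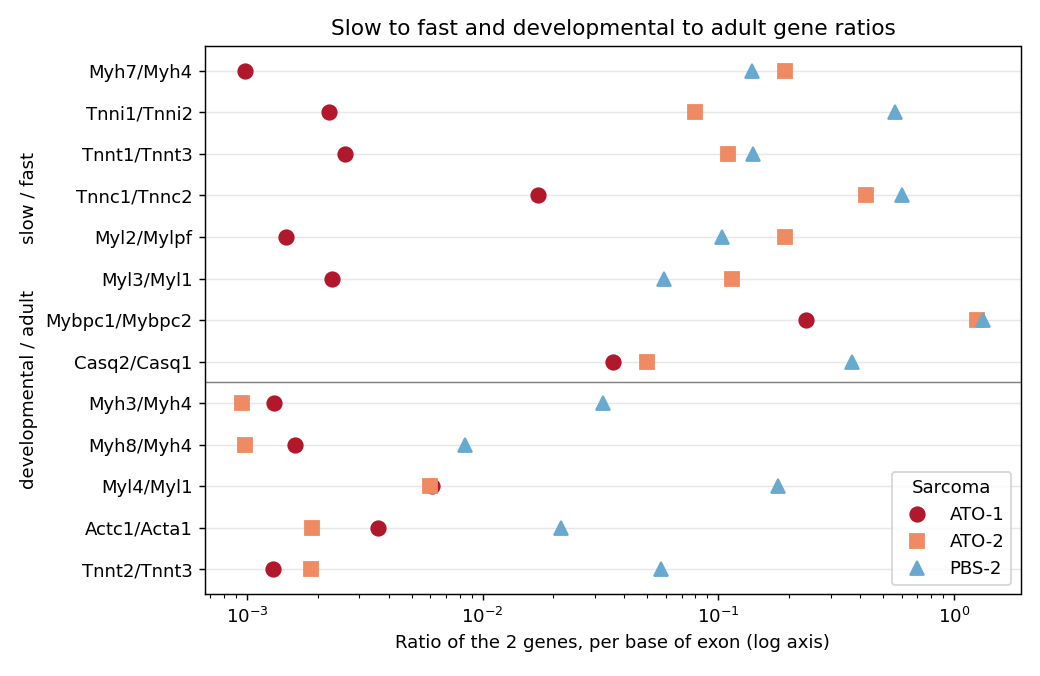
Ratio of 2 genes per base of exon (log axis) in the 3 sarcomas with enough muscle reads, for 8 slow to fast pairs (above the line) and 5 developmental to adult pairs (below). ATO-1 is lowest in all 8 slow to fast pairs, and PBS-2 is highest in all 5 developmental to adult pairs.

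The developmental partners set PBS-2 apart instead. Of 5 such genes (Myl4, Actc1, Tnnt2, Mybph and Chrng), 2 had both ATO sarcomas above both PBS sarcomas by TMM-normalized CPM (Actc1 and Mybph). By FPKM only Mybph did, since Actc1 had 0.81 in ATO-2 and 1.00 in PBS-2. The share of all genes tested was 19.7% by TMM-normalized CPM and 12.8% by FPKM. Of the 4 tested developmental partners, 0 passed an adjusted p of 0.05 in edgeR, with a median log2 fold change of 2.72. The developmental to adult ratio was highest in PBS-2 in 5 of 5 pairs, 3 of them without a myosin heavy chain. Per base of exon, Myh3 to Myh4 stood at 0.00130 in ATO-1, 0.000956 in ATO-2 and 0.0323 in PBS-2, and Myh8 to Myh4 at 0.00160, 0.000984 and 0.00846. Myl4 to Myl1, the embryonic and fast essential light chains, stood at 0.00612, 0.00596 and 0.179. Actc1 to Acta1, the cardiac and skeletal alpha actins, stood at 0.00358, 0.00189 and 0.0214. In all 5 pairs the adult gene was the higher one in these 3 sarcomas. PBS-1 had too few reads for the comparison, with 7 of Myl1 against 44 of Myl4. Myl4 had 29 counts in ATO-2 and 97 in PBS-2, so PBS-1 read more of it than ATO-2. Tnnt2 had 14 counts and Actc1 9 in PBS-1, where muscle RNA was close to nothing. What the 3 ratios without a myosin heavy chain say of developmental muscle is therefore uncertain. The gamma subunit of the fetal acetylcholine receptor, Chrng, had 22, 0, 2 and 7 counts, and the adult epsilon subunit, Chrne, had 31, 0, 0 and 2, which is too few to compare outside ATO-1.

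Myl4, Actc1 and Tnnt2 are also expressed in heart, and Myh7 is shared between heart and slow fibres, so markers of cardiomyocytes were read beside them. Of 5 such markers, Nppa, Myl7 and Nkx2-5 had at most 3 counts in every sarcoma, and their summed level with Tnni3 and Mybpc3 was 1.27 to 3.02 FPKM. No marker of the 5 had both ATO sarcomas above both PBS sarcomas. Genes that decide which chain a fibre makes were not ordered by treatment as a list. Of 10 such regulators, 5 had a positive and 5 a negative log2 fold change with a median of 0.21, and 0 passed an adjusted p of 0.05 in edgeR. Both ATO sarcomas lay above both PBS sarcomas for 2 of the 10, near the 19.7% of all genes tested. One was Sox6, which represses slow genes in fast fibres (7.64, 1.14, 0 and 0.17 FPKM). The other was Vgll2, a muscle cofactor of TEAD factors (23.8, 1.03, 0 and 0.10 FPKM). Nfix, which drives the passage from embryonic to fetal muscle genes, had 27.3, 17.7, 48.6 and 9.19 FPKM and overlapped between the groups.

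Of 3 marker lists for other cell types, that of adipocytes was ordered by group. All 5 adipocyte markers had both ATO sarcomas above both PBS sarcomas, against 19.7% of all genes tested. The summed level of these markers was 229 FPKM in ATO-1, 1369 in ATO-2, 12.7 in PBS-1 and 66.2 in PBS-2. In this order ATO-2 and not ATO-1 was highest. In PBS nearly all of the adipocyte sum was Fabp4, at 12.6 FPKM in PBS-1 and 66.1 in PBS-2. Adipoq, Plin1, Cidec and Lep were at most 0.08 FPKM in both PBS sarcomas. The 5 endothelial markers summed to 72.4, 145, 99.8 and 904 FPKM, and the 5 leukocyte markers to 150, 288, 202 and 118. For 0 of these 10 endothelial and leukocyte genes were the groups apart. The mitochondrial share of counts was 14.7% in ATO-2 and 1.98 to 2.59% elsewhere. The part of these differences in the myosin heavy chain values was not tested.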

How the data were processed

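RNA-seq of 4 sarcomas, 2 per treatment, was analysed in groups taken from the labels. The authors trimmed reads with cutadapt 1.9.1 after FastQC 0.10.1, aligned them with HISAT2 2.0.1 and deposited raw read counts per gene and FPKM. Each deposited FPKM equalled count over exon length and total count within 0.005. The labels name TRIzol and a SMARTER kit, the study's methods a spin column and a TruSeq kit. The strand setting is not given in the sources used here. GRCm38 is named, but only 2.83% of 52073 shared genes had their GENCODE M21 position in the table, so positions were taken from M21 by identifier. The 2639 genes without a symbol held at most 0.171% of counts.

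The ATO and PBS counts were compared in edgeR 4.0.16 under R 4.3.3, by a quasi-likelihood F-test with trended dispersion after filterByExpr and TMM, with Benjamini-Hochberg adjusted p-values called under 0.05. A count of 0 allows up to 3 counts, 0.165 to 0.197 CPM, and such limits cover counting error only. As alternatives, DESeq2 1.42.0 or its size factors replaced edgeR or TMM, and further ones were no filter on counts, limma 3.58.1 on log2(FPKM + 1) or log2(FPKM + 0.1), a replicate block and leaving out each sarcoma. The script was tested on simulated counts. Sequences were handled with Biopython 1.88, from GENCODE M21 transcripts and RefSeq promoters. Genes named were the 9 members, the genes of the lists, those of the chromosome 11 cluster and the 5 nearest profiles. The members and lists were chosen with earlier results of these data known. The labels do not say more of the replicates than that they are separate sarcomas, so p-values measure the spread between these samples.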

Additional observations from a re-analysis of the deposited data

How the results depend on the processing

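Within groups, the biological coefficient of variation was 62.5%, and PBS-1 held too few reads to give a make-up. Past the threshold were 0 genes, against 716 with DESeq2 (559 higher and 157 lower in ATO) and 541 with edgeR without a filter (454 higher and 87 lower), and 0 in all fits that left out a sarcoma. Of the members, 0 were past it, against 2 (Myh1 and Myh4) with each of those 2 alternatives and 0 in all fits that left out a sarcoma; the cause was not tested. The median log2 fold change of the members tested was 4.09, against 1.24 in limma on log2(FPKM + 1) without a filter, where 9 members entered, and 3.09 to 11.01 with a sarcoma left out, the highest without PBS-2. The developmental share of ATO minus PBS was -0.976 percentage points and lay between -2.21 and 0.258 with a sarcoma left out, reversed at 0.258 without PBS-2. In alternatives chosen after seeing the data, the adult fast share of ATO minus PBS, 23.1 points, was reversed at -1.39 without Myh6, Myh7b and Myh13 and lay between 5.38 and 40.8 with a sarcoma left out. The slow share, 2.39 points, lay between -4.88 and 9.65, reversed at -4.88 without ATO-2 and at -2.60 without PBS-1. Myh3 lay between -1.21 (reversed, without ATO-1) and 10.67 with a sarcoma left out, and Myh7b between -0.93 and 0.51, reversed at 0.51 without ATO-1 and at 0.10 without PBS-1. Myh2, Myh7 and Myh8 kept their direction and stayed short of the threshold in 11 of 11 alternatives, and Myh1 and Myh4 in 9 of 11. The median of all genes shifted from -0.02 to -0.23 and -0.28 in limma on log2(FPKM + 1) and log2(FPKM + 0.1). The replicate numbers pair nothing in the labels, and deviations of sarcomas with the same number correlated at -0.02. With the replicate block in edgeR, 0 genes and 0 members passed, 1165 genes had an unadjusted p under 0.05, the median of the members was 5.45 and the difference in developmental share -0.976, in adult fast share 23.1 and in slow share 2.39 percentage points.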

Other observations

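Of the noncoding genes within the chromosome 11 cluster, 3 had counts. Against 19.7% of all genes tested, both ATO sarcomas lay above both PBS sarcomas for each of these 3. In the PBS sarcomas each of them had at most 3 counts, too few to give an order within that group. Myhas (chr11:67211256-67237573), transcribed from the minus strand, reaches from the gap before Myh4 into Myh1. It had 120 counts in ATO-1, 21 in ATO-2, 1 in PBS-1 and 0 in PBS-2. The antisense gene 9430073C21Rik (chr11:67195680-67199234), which overlaps Myh2 by 237 exonic bases, had 26, 22, 0 and 3 counts, and 2310065F04Rik (chr11:67112461-67120080), between Myh3 and Myh2, had 23, 15, 0 and 0. Each of the 3 had an adjusted p of 0.570 in edgeR. Mir6923, within Myh3, had 0 counts in all 4 sarcomas. Myhas shares 515 exonic bases with Myh1, and without the strand of the counting its reads there cannot be told apart from those of Myh1.

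Among markers of satellite cells and myoblasts the highest was Cdh15, a cadherin of myoblasts, with 10.8 FPKM in ATO-1, above Myh3 and Myh8 there, and 0.32, 0.12 and 0.14 in ATO-2, PBS-1 and PBS-2. Pax7, which marks muscle stem cells, had 11, 2, 0 and 0 counts in ATO-1, ATO-2, PBS-1 and PBS-2, and Myod1, which commits cells to muscle, had 70, 15, 0 and 1. Myog, needed for differentiation, had 169, 11, 0 and 17 counts, and Mymk, needed for fusion of myoblasts, had 38, 0, 0 and 6. By TMM-normalized CPM, 5 of the 7 genes of the list had both ATO sarcomas above both PBS sarcomas, against 19.7% of all genes tested. By FPKM 4 did, against 12.8%, since Myog had 0.48 in ATO-2 and 0.63 in PBS-2. Pax7 and Myf5 are counted here but had too few reads to be tested. Of the 3 tested, 0 passed an adjusted p of 0.05 in edgeR, with a median log2 fold change of 5.52.

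Smooth muscle and nonmuscle myosin heavy chains were divided. Myh14, a nonmuscle chain, had 8.45 FPKM in ATO-1, 1.51 in ATO-2, 0 in PBS-1 and 0.21 in PBS-2, the order of Myh4, with a log2 fold change of 5.71 (SE 1.92, adjusted p = 0.570 in edgeR). Myh9, a nonmuscle chain, had 35.8, 41.7, 96.2 and 137 FPKM, and Myh10, another nonmuscle chain, had 3.46, 3.08, 24.2 and 18.6 FPKM, with both ATO sarcomas below both PBS sarcomas (20.2% of genes tested). Their adjusted p was 0.624 for Myh9 and 0.570 for Myh10 in edgeR. Myh11, the smooth muscle chain, was highest in ATO-2 at 8.99 FPKM and lay between 1.34 and 2.02 FPKM in the other sarcomas. Among genes of thick filament assembly and turnover, Trim63, a ubiquitin ligase of muscle atrophy, had 315 FPKM in ATO-1, 0.97 in ATO-2, 0 in PBS-1 and 1.39 in PBS-2, so that its step between the ATO sarcomas exceeded that of Myh4 and its groups overlapped. In that list of 8 genes, 7 had both ATO sarcomas above both PBS sarcomas by TMM-normalized CPM, against 19.7% of all genes tested. By FPKM 6 did, against 12.8%.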
